A study of Mus musculus with 9 samples.

Results

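The siRNA experiment held 3 of the 9 RNA-seq libraries of the series. In it, primary mouse brown adipocytes were transfected with siSetdb1 (2 libraries, called siSetdb1 1 and 2 here) or with siNC (1 library), and Setdb1 was the gene targeted. Of 21321 genes in the deposited tables of this experiment, 15224 had at least 10 normalised counts in 1 of its 3 libraries and were tested. A normalised count is the number of reads on a gene times 1 scaling factor per library. Genes were picked for the size of their change only where both siSetdb1 libraries lay on the same side of siNC. Genes of a fixed set or named from lists were read whichever side the libraries lay on. That set and the lists were chosen with earlier results of these data known. The labels give neither the genotype, sex nor age of the mice behind these cells, nor the siRNA sequences, the dose and the time after transfection. They also do not say whether siSetdb1 1 and 2 received the same siRNA or came from separate cultures, so the scatter behind a p-value may be technical. Most of that scatter is borrowed across genes: the main test adds 10.2 prior degrees of freedom to the 1 of each gene.

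SETDB1 is a methyltransferase that places trimethylation on histone H3 lysine 9, which marks chromatin that is kept silent. KRAB zinc finger proteins bring it to DNA through TRIM28, its partner ATF7IP keeps it in the nucleus and protects it from degradation, and it is known for silencing endogenous retroviruses and genes that lie near them. An siRNA guides cleavage of the matching transcript and usually leaves part of it intact, whereas recombination of a floxed gene removes coding sequence for good. For comparison, the series holds Setdb1 flox/flox cells carrying Rosa26Cre-ERT2, a Cre recombinase activated by 4-hydroxytamoxifen, with 1 library after 1 μM 4-OHT and 1 after ETOH, its vehicle. It also holds whole brown adipose tissue (BAT) of 2 Setdb1 AKO mice (Setdb1 fl/fl with Adipoq-Cre, a recombinase expressed in adipocytes) and of 2 control mice (Setdb1 fl/fl without Adipoq-Cre). The titles of all these BAT libraries carry the label TN_CE, which AKO and control mice thus share. ETOH cells carry that Cre without its activating drug, and no group holds an active Cre with Setdb1 that is not floxed. Effects of an active Cre, and in cells of 4-OHT itself, thus cannot be told apart from loss of Setdb1 in those 2 experiments; the siRNA cells are not labelled as carrying one.

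The libraries held 18468152 (siNC), 17721078 (siSetdb1 1) and 17593799 (siSetdb1 2) reads on genes, of which 9.56% to 10.1% were mitochondrial. Brown adipocyte markers had reads in 16 of 16 genes, with a median level of 3310 to 3372 normalised counts per kb of gene length. Fibroblast and preadipocyte markers had a median of 84.3 to 104 per kb, macrophage markers 9.34 to 14.8 and endothelial markers 0.803 to 1.80. Smooth muscle and pericyte markers had a median of 94.3 to 116 per kb. Schwann and neuronal markers had 19.8 to 25.1, and skeletal muscle and myoblast markers 1.18 to 2.55. All 4 epithelial markers in the tables, 6 of 7 erythroid markers and 8 of 11 lymphocyte markers had 0 reads in all 3 libraries. Ighm, also of the lymphocyte list, was not low. It read 842 normalised counts in siNC, 1392 in siSetdb1 1 and 1075 in siSetdb1 2 (limma, adjusted p = 0.734). The siSetdb1 libraries differed from each other about as much as each differed from siNC. Among genes with at least 20 reads, the median absolute log2 ratio was 0.16 between siSetdb1 1 and 2, 0.16 between siNC and siSetdb1 1 and 0.17 between siNC and siSetdb1 2. Ratios past 1.5-fold made up 10.3%, 10.1% and 10.7% of genes in these pairs, so such ratios were about as common between the siSetdb1 libraries as between either of them and siNC.

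The targeted gene was measured first. Setdb1 (ENSMUSG00000015697, GRCm38 chromosome 3, 95323525 to 95357202) read 784 normalised counts in siNC, 371 in siSetdb1 1 and 399 in siSetdb1 2. The siSetdb1 libraries thus held 47.3% and 50.9% of the siNC level, and they lay closer to each other than to siNC. The log2 fold change was -1.02 (SE 0.15), which narrowly missed the threshold of 0.05 (limma, adjusted p = 0.0537). Setdb1 passed that threshold with edgeR (adjusted p = 1.14e-04) and with DESeq2 (adjusted p = 0.030), and its adjusted p ranged from 2.62e-05 to 1 over 11 alternative settings. In the annotation Cers2 overlaps Setdb1 on the opposite strand, as Gm44140 does Atf7ip and 6530413G14Rik does Acp5, and whether the reads were counted by strand is not given in the sources used here.

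**Figure D1:**
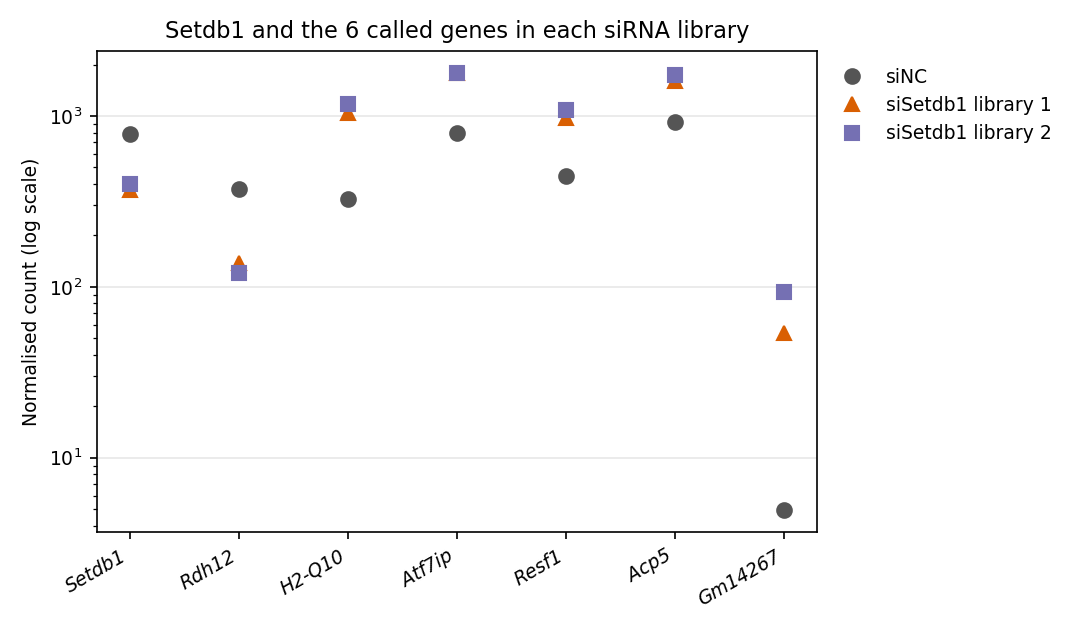
Normalised counts (log axis) of Setdb1 and of the 6 genes that passed the test, with 1 point for each library: siNC (circle), siSetdb1 1 (triangle) and siSetdb1 2 (square). Both siSetdb1 points lie on one side of siNC for each gene, from a fold of 14.9 for the pseudogene Gm14267, low in siNC, to 1.81 for Acp5.

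Beyond the target, 5 genes rose and 1 fell. This is 0.0328% and 0.00657% of the 15224 genes tested (limma, false discovery rate below 0.05), while 770 genes (5.06%) had an unadjusted p below 0.05. All 6 were also called by edgeR and by DESeq2. Those tools called more genes, 29 higher (0.19%) and 8 lower (0.0525%) with edgeR and 8 higher and 3 lower with DESeq2. None of the 6 was called with no filter on low counts, without a trend in the variance, or when the spread was estimated over all 9 libraries. The p-values of this design thus depend on how the spread is modelled, with 1 residual degree of freedom.

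Among the genes that rose, 2 encode proteins of the SETDB1 pathway itself, and 1 is an MHC class I gene. The sequence around the annotated start of each is shown with that of Rdh12, the gene that fell, so that the start regions can be read beside the changes. Each is 300 bases long, from 250 before to 50 after a RefSeq start (GRCm38.p6), read 5′ to 3′ on the strand of the gene, with CG dinucleotides in capitals. They lie at chr6:136518601-136518900, plus strand, chr6:149309164-149309463, plus strand, chr17:35469839-35470138, plus strand, and chr12:79208663-79208962, plus strand. The Atf7ip window lies 12684 bases from the start in the deposited table, so it shows another of its starts.
Atf7ip: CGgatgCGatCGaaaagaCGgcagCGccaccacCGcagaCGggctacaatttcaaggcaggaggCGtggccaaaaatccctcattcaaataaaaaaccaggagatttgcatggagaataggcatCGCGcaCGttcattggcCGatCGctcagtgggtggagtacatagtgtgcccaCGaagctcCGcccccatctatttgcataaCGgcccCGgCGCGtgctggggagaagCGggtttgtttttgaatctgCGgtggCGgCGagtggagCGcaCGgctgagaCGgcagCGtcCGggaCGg
Resf1: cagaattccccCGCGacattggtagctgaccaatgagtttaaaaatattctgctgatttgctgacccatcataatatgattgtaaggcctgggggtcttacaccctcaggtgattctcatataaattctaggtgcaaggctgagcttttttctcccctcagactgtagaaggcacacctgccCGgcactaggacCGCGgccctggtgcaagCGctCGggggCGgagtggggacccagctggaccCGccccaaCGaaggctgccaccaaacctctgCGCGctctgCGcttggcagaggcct
H2-Q10: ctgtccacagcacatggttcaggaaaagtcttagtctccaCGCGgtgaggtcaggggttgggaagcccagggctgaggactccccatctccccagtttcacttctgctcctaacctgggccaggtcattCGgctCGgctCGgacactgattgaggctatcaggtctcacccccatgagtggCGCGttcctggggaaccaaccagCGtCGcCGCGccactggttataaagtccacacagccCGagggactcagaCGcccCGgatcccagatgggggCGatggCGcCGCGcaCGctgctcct
Rdh12: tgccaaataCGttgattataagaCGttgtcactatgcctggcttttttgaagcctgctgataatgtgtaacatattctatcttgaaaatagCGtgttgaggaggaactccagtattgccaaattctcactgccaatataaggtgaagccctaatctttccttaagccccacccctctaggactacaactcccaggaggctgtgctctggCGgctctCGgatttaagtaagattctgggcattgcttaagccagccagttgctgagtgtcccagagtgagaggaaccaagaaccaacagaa

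The Atf7ip window held 29 CG dinucleotides, a number that 12.9% of the 32851 RefSeq promoter windows reach. That of H2-Q10 held 19 (28.1% of windows reach it), that of Resf1 13 (37.9%) and that of Rdh12 5 (62.0%), against a median of 7 over all windows. The window of Acp5, another gene that rose, held 4 (68.6%), fewer than that of Rdh12. These counts describe the windows and say nothing of what binds there.

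Atf7ip (ENSMUSG00000030213, chromosome 6, 136506167 to 136610862), the partner that stabilises SETDB1, read 790.4 normalised counts in siNC, 1777 in siSetdb1 1 and 1795 in siSetdb1 2. Both siSetdb1 libraries lay at nearly the same level, above siNC, and the log2 fold change was 1.18 (SE 0.12; limma, adjusted p = 0.0050). Resf1 (ENSMUSG00000032712, chromosome 6, 149309414 to 149335663), a retroelement silencing factor that binds SETDB1, read 443 in siNC, 979 in siSetdb1 1 and 1088 in siSetdb1 2. Its log2 fold change was 1.22 (SE 0.14; limma, adjusted p = 0.0109). Both transcripts lay above siNC in each siSetdb1 library, which being called already favours, so it is no further evidence.

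H2-Q10 (ENSMUSG00000067235, chromosome 17, 35470089 to 35474563), a secreted MHC class I protein known from liver, read 328 normalised counts in siNC, 1045 in siSetdb1 1 and 1172 in siSetdb1 2. The siSetdb1 libraries were 3.38-fold above siNC on average, and the log2 fold change was 1.75 (SE 0.14; limma, adjusted p = 9.68e-04). Class I genes are near copies of one another: 3 annotated genes share over 5% of the 31-base words of H2-Q10, the closest 21.9%, so some reads may belong to a relative. Acp5 (ENSMUSG00000001348, chromosome 9, 22126727 to 22135711), tartrate-resistant acid phosphatase, read 927 in siNC, 1614 in siSetdb1 1 and 1738 in siSetdb1 2. Its log2 fold change was 0.85 (SE 0.12; limma, adjusted p = 0.0478).

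Gm14267 (ENSMUSG00000085682, chromosome 2, 166500036 to 166522373) is a transcribed processed pseudogene and so lies outside the rule for named genes. It read 4.93 normalised counts in siNC, 53.7 in siSetdb1 1 and 93.7 in siSetdb1 2, and its log2 fold change was 3.60 (SE 0.50; limma, adjusted p = 0.0478). The single gene that fell, Rdh12 (ENSMUSG00000021123, chromosome 12, 79208914 to 79222665), encodes a retinol dehydrogenase that reduces retinal. Rdh12 read 374 in siNC, 139 in siSetdb1 1 and 121 in siSetdb1 2, and its log2 fold change was -1.52 (SE 0.21; limma, adjusted p = 0.0478). Acp5, Gm14267 and Rdh12 were called in 4 of the 11 alternative settings, and H2-Q10, Atf7ip and Resf1 in 6 of them.

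**Figure D2:**
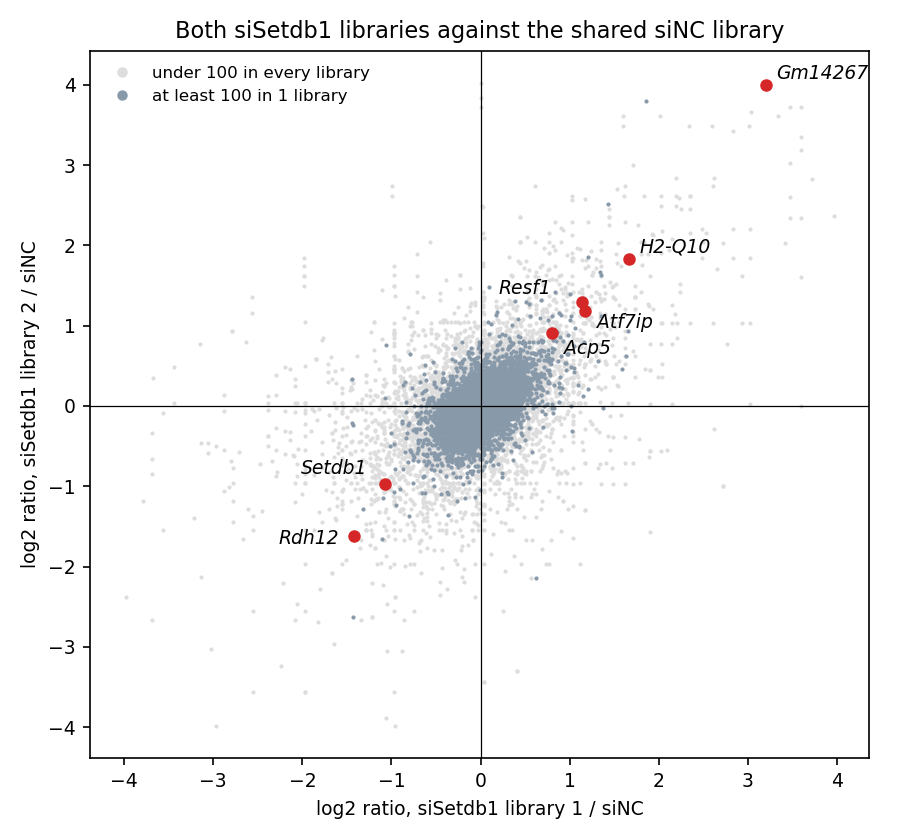
The log2 ratio to siNC of each tested gene in siSetdb1 1 (horizontal axis) and siSetdb1 2 (vertical axis), darker where a library reached 100 normalised counts. Setdb1 and the 6 genes that passed the test are marked in red at the edge of the cloud; both axes share the siNC library, so a deviation of siNC alone stretches the cloud along the diagonal.

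Without a test, 466 genes (3.06%) were higher and 419 (2.75%) lower than siNC by over 1.5-fold in both siSetdb1 libraries, and 129 genes passed 1.5-fold in opposite directions. Both comparisons share the siNC library, so these counts include genes that deviate in siNC alone. Most were rare transcripts: the median siNC level was 7.89 normalised counts for the higher genes and 19.7 for the lower ones. Among 10555 genes with at least 100 normalised counts in 1 library, 60 were higher and 31 lower by that fold. Of the 60, 39 (65.0%) were also higher in Setdb1 AKO than in control BAT, beside 49.97% of the 10555 genes. Against ETOH, 30 of the 60 were higher in 4-OHT cells, beside 56.6% of the 10555. Of the 31 lower genes, 11 (35.5%) were higher in Setdb1 AKO than in control BAT, and 17 (54.8%) in 4-OHT than in ETOH cells.

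Other genes were named for the size of the change held by both libraries, and Hcar2 and those that follow on either side did not reach the threshold with limma or DESeq2. Several of them did with edgeR. Hcar2, the receptor for niacin and ketone bodies, read 110.5 normalised counts in siNC, 224 in siSetdb1 1 and 242 in siSetdb1 2. Ffar2, a receptor for short-chain fatty acids, read 137, 257 and 302 in the same order. Npr1, the receptor for atrial natriuretic peptide, read 71.0, 141 and 132. Each had about double the siNC level in both siSetdb1 libraries, with log2 fold changes of 1.07 (SE 0.21) for Hcar2, 1.02 (SE 0.20) for Ffar2 and 0.93 (SE 0.26) for Npr1, and limma adjusted p-values of 0.227, 0.237 and 0.650. With edgeR, Hcar2 (adjusted p = 0.0335) and Ffar2 (0.0265) were called and Npr1 (0.329) was not.

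Other genes higher in both libraries were Megf10, an engulfment receptor (61.2 in siNC, 158 and 192 normalised counts in siSetdb1 1 and 2), and Tslp, an epithelial cytokine (52.3, then 119 and 124). Pla2g4a, the phospholipase that frees arachidonic acid, read 135 in siNC and 273 and 286 in siSetdb1 1 and 2. Rpl39l, a ribosomal protein paralog of the testis, read 53.3, then 113 and 106. The mitochondrial gene mt-Co3, a subunit of cytochrome c oxidase, read 2447, then 7729 and 4681; a nuclear copy shares 99.9% of its 31-base words, and the medians of the 13 mitochondrially encoded genes were 0.04 and -0.05 in the siSetdb1 libraries. The limma adjusted p-values were 0.103 for Megf10, 0.491 for Tslp, 0.177 for Pla2g4a, 0.697 for Rpl39l and 0.0927 for mt-Co3. With edgeR, mt-Co3 (adjusted p = 2.76e-06), Megf10 (0.0056) and Pla2g4a (0.0194) were called, while Tslp (0.131) and Rpl39l (0.361) were not.

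On the lower side, Car2, carbonic anhydrase 2, read 909 normalised counts in siNC, 496 in siSetdb1 1 and 527 in siSetdb1 2. Sept6, a septin of the cytoskeleton, read 353, then 179 and 168. Aldh1b1, a mitochondrial aldehyde dehydrogenase, read 202, then 94.2 and 90.6. Their siSetdb1 libraries lay close together and near one another's level, with log2 fold changes of -0.83 (SE 0.14) for Car2, -1.02 (SE 0.20) for Sept6 and -1.12 (SE 0.25) for Aldh1b1, and limma adjusted p-values of 0.103, 0.197 and 0.388. All 3 were called by edgeR (adjusted p = 0.0013 for Car2, 0.0064 for Sept6 and 0.0353 for Aldh1b1). The matrix proteoglycan Lum read 107, then 54.7 and 44.8, and the growth factor Gdf10 113, then 44.6 and 45.8. Pm20d1, an enzyme of N-acyl amino acids, read 112 in siNC, then 56.7 and 64.2. The sugar phosphate carrier Slc37a2 read 170, then 90.2 and 82.5, and the transcriptional cofactor Cited4 162, then 92.2 and 62.1. For these 5 genes the limma adjusted p lay between 0.571 (Gdf10) and 0.938 (Pm20d1), and edgeR called none of them (adjusted p from 0.104 to 0.557). Sumo2, a ubiquitin-like modifier, read 666 in siNC, 247 in siSetdb1 1 and 107 in siSetdb1 2 (adjusted p = 0.142 with limma and 1.58e-06 with edgeR), and 8 annotated genes share over 5% of its 31-base words.

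In the authors' deposited tables, which test each siSetdb1 library alone against siNC, few genes have an adjusted p below 0.05. The authors' deposited table for siSetdb1 1 has 2 such genes higher, Gm14296 and Gm14267, and 0 lower. The authors' deposited table for siSetdb1 2 has 4 higher, Entpd4b, Gm14267, Elovl3 and Gm12418, and 2 lower, Sumo2 and Srp54b. Gm14267 is the gene named in both. Srp54b, a signal recognition particle subunit with 86.1% of its words in another gene, lay on opposite sides of siNC: 836 normalised counts in siNC, 1283 in siSetdb1 1 and 188 in siSetdb1 2.

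Of the proteins that work with SETDB1 or on methylation of the same lysine, 24 of 25 listed genes were tested. With limma, Atf7ip and Resf1 rose and 0 fell; edgeR called these 2 and Setdb1, a member of the list itself, which was lower. In all, 10 lay higher and 8 lower in both siSetdb1 libraries, beside 34.1% and 33.8% of all genes tested. The median log2 fold change of the list was 0.01, beside -0.00 for all genes tested. Trim28, the adaptor of KRAB zinc finger proteins, read 2812 in siNC, 2910 in siSetdb1 1 and 2619 in siSetdb1 2. Among subunits of the HUSH complex, which spreads the mark, Mphosph8 read 365, 364 and 364 and Fam208a 303, 372 and 438, while the HUSH partner Morc2a read 775, 990 and 959. Other methyltransferases of histone H3 lysine 9 are SUV39H1, which also places trimethylation, and EHMT1 and EHMT2, which place mono- and dimethylation. Suv39h1 (272, then 267 and 235), Ehmt1 (908, then 889 and 958) and Ehmt2 (2740, then 2757 and 2446) stayed within 1.5-fold of siNC in both libraries. Their limma adjusted p-values were 0.955 for Suv39h1, 0.986 for Ehmt1 and 0.955 for Ehmt2, which does not show that they were equal. Among 16 genes of DNA methylation, 0 passed the test, and Mbd1, a reader of methylated DNA, read 609.8 in siNC, 616 in siSetdb1 1 and 660 in siSetdb1 2.

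Of the genes of antigen presentation, more lay above siNC than below it, and more so in siSetdb1 1. This list of MHC genes, their chaperones and peptide loading genes was put together after H2-Q10 had been seen, so it is a description. Of its 28 tested genes, 15 (53.6%) were higher and 4 (14.3%) lower in both siSetdb1 libraries, beside 34.1% and 33.8% of all genes tested. The siSetdb1 libraries did not share a side of siNC in 9. An unadjusted p below 0.05 was found in 11, as in 5.06% of all genes tested. H2-Q10 was the 1 gene called by limma, while edgeR called 4, beside 37 of all 15224 genes tested. The median log2 ratio to siNC was 0.39 in siSetdb1 1 and 0.18 in siSetdb1 2. B2m, the light chain of class I molecules, read 19319 in siNC, 31165 in siSetdb1 1 and 24949 in siSetdb1 2 (log2 fold change 0.53, SE 0.14; limma, adjusted p = 0.571). Psmb9, a subunit of the immunoproteasome, read 415 in siNC, 860.4 in siSetdb1 1 and 575 in siSetdb1 2. The class I genes H2-Q6 (132, then 413 and 204) and H2-Q7 (196, then 594 and 269.9) followed the same order, siSetdb1 1 above siSetdb1 2 above siNC. These 3 genes passed with edgeR (adjusted p = 0.0353 for Psmb9, 0.0281 for H2-Q6 and 0.0353 for H2-Q7), not with limma (0.637, 0.734 and 0.929). H2-Q10 did not follow that order, since it was as high in siSetdb1 2 as in siSetdb1 1. The peptide transporter genes Tap1 (936, then 1203 and 847) and Tap2 (1068, then 908 and 898) did not share the higher level.

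**Figure D3:**
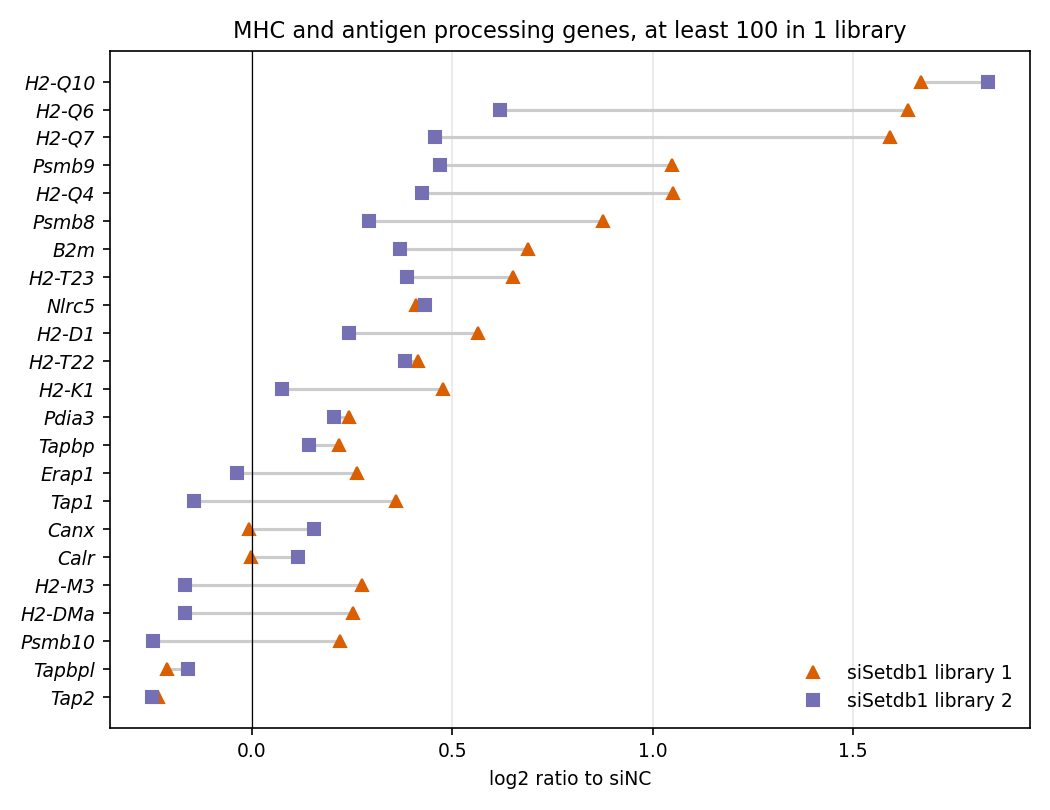
Log2 ratio to siNC of MHC and antigen processing genes with at least 100 normalised counts in 1 library, with 1 triangle for siSetdb1 1 and 1 square for siSetdb1 2. The squares of H2-Q10 and Nlrc5 lie at or beyond their triangles, while those of H2-Q6, H2-Q7, Psmb9 and Psmb8 lie well to the left of them.

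Interferon-stimulated genes were tilted to the higher side with small changes. Of 43 tested genes, 35 (81.4%) were higher and 3 (6.98%) lower in both siSetdb1 libraries, beside 34.1% and 33.8% of all genes tested, the background for each list that follows. With limma 0 passed the test, edgeR called Zbp1, and 10 had an unadjusted p below 0.05, as 5.06% of all genes tested did. The median log2 fold change was 0.23, with 0.27 in siSetdb1 1 and 0.13 in siSetdb1 2. Zbp1, a sensor of Z-form nucleic acids, read 543 in siNC, 1100 in siSetdb1 1 and 761 in siSetdb1 2 (log2 fold change 0.75, SE 0.19; limma, adjusted p = 0.565). Ifit2, an RNA-binding antiviral protein, read 147, then 237 and 239. The virion tether Bst2 read 5636, then 9602 and 6853, and the RNA sensor Ifih1 696, then 918 and 888. Ifi27, also of the list, lay the other way, with 13566 in siNC, 10665 in siSetdb1 1 and 11722 in siSetdb1 2. In the other experiments, 36 of these 43 genes were higher in Setdb1 AKO than in control BAT and 16 were higher in 4-OHT than in ETOH cells, beside 7629 and 8076 of all 15224 genes tested; the difference between the experiments was not tested for the list.

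Targets of YAP, TAZ and TGF-beta, which respond to cell shape and matrix, showed a like tilt. Of 22 tested genes, 15 (68.2%) were higher and 1 (4.55%) was lower in both libraries, 0 passed the test (limma), Ctgf was called by edgeR, 4 had an unadjusted p below 0.05, and the median log2 fold change was 0.23. Ctgf, a matrix-associated signalling protein, read 3454 in siNC, 4941 in siSetdb1 1 and 5494 in siSetdb1 2 (log2 fold change 0.59, SE 0.11; limma, adjusted p = 0.177). Cyr61, a relative of Ctgf, read 1394, then 1869 and 1982. Both siSetdb1 libraries were above siNC in Ctgf and in Cyr61.

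Cell cycle genes lay mostly below siNC, and siSetdb1 2 carried most of that. Of 35 tested genes, 1 (2.86%) was higher and 23 (65.7%) were lower in both libraries, 0 passed the test (limma), 0 were called by edgeR, and 5 had an unadjusted p below 0.05. The median log2 ratio to siNC was -0.09 in siSetdb1 1 and -0.45 in siSetdb1 2. The transcription factor Foxm1 read 335 in siNC, 242 in siSetdb1 1 and 212 in siSetdb1 2. The proliferation marker Mki67 read 709, then 664 and 465, and the mitotic kinase Plk1 283, then 264 and 161. In Mki67 and Plk1, siSetdb1 1 lay nearer to siNC than to siSetdb1 2.

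**Figure D4:**
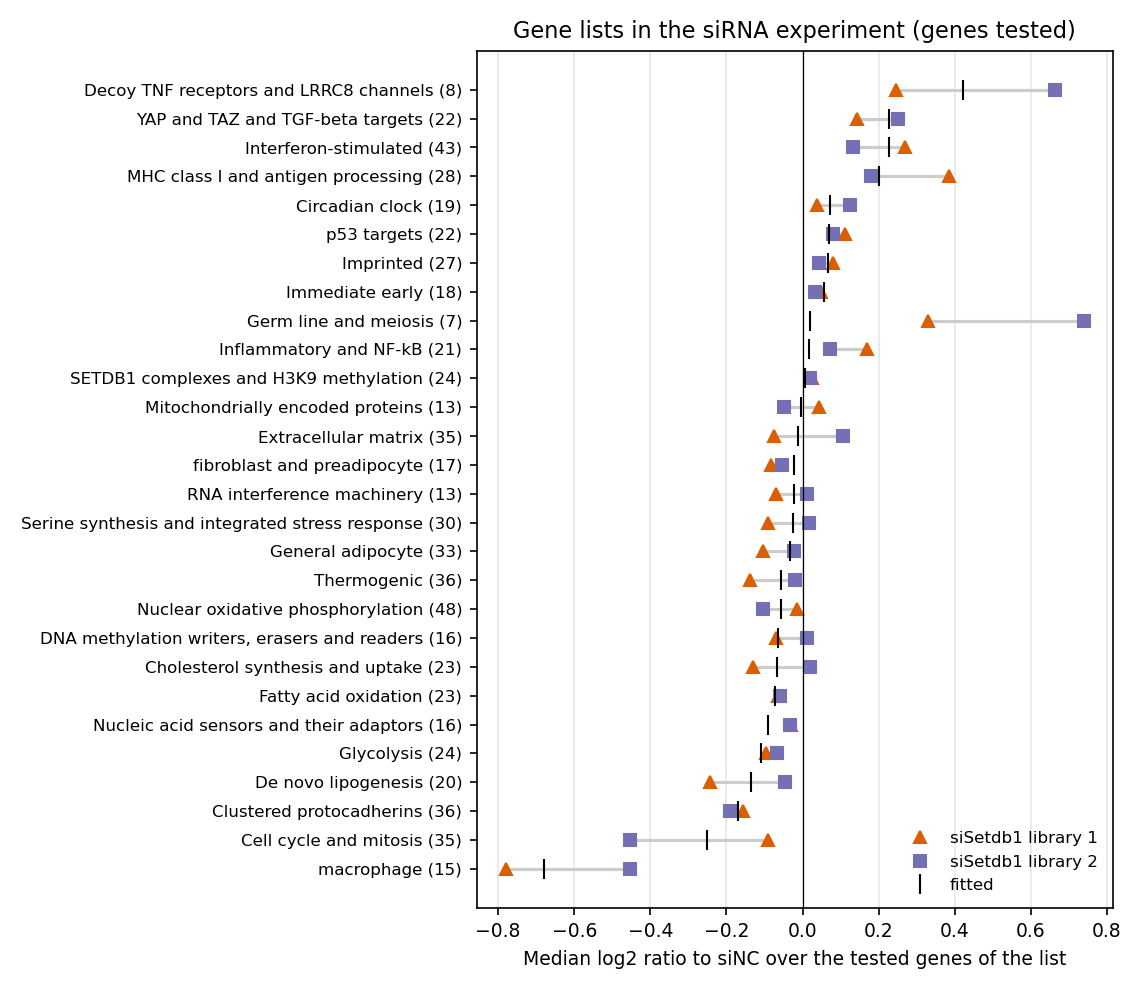
Median log2 ratio to siNC over the tested genes of each list (number in brackets) in siSetdb1 1 (triangle) and siSetdb1 2 (square), with the median fitted change as a bar. Interferon-stimulated genes and YAP, TAZ and TGF-beta targets have both symbols to the right of 0, cell cycle genes and macrophage markers both to the left, and de novo lipogenesis genes lie at -0.24 in siSetdb1 1 and -0.05 in siSetdb1 2.

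Thermogenic genes of the brown adipocyte programme lay on both sides of siNC. Of 36 tested, 0 passed the test (limma), Elovl3 was called by edgeR, and 6 had an unadjusted p below 0.05. In both libraries 10 (27.8%) were higher and 15 (41.7%) lower, and the median log2 fold change was -0.06. Ucp1, the uncoupling protein that makes heat, read 16305 in siNC, 15559 in siSetdb1 1 and 13794 in siSetdb1 2 (log2 fold change -0.15, SE 0.11; limma, adjusted p = 0.940). Its regulator Prdm16 read 737, then 649.6 and 679, and the deiodinase Dio2 469.7, then 615 and 516. The coactivator Ppargc1a (756, then 776 and 687) and the lipid droplet protein Cidea (17750.4, then 14973 and 19158) lay on opposite sides of siNC in the siSetdb1 libraries. Adrb3, the beta-adrenergic receptor of fat, read 7612 in siNC, then 6175 and 5345 (limma, adjusted p = 0.734).

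The exception by size among thermogenic genes was Elovl3, an elongase of very long fatty acids. Elovl3 read 35.5 normalised counts in siNC, 97.3 in siSetdb1 1 and 208 in siSetdb1 2. Both siSetdb1 libraries lay above siNC and apart from each other, and the log2 fold change was 1.97 (SE 0.40; limma, adjusted p = 0.237). It was called in 3 of the 11 alternative settings, edgeR among them. Among general adipocyte genes, 0 of 33 passed the test (limma; 2 at an unadjusted p below 0.05 and 0 with edgeR). The adipokine Adipoq read 16989.6 in siNC, then 14552 and 15927, the adipogenic receptor Pparg 8096, then 8913 and 8422, and the fatty acid binding protein Fabp4 144731, then 150938 and 148728.

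Metabolic lists were below siNC more often than above, by small amounts. De novo lipogenesis genes were higher in both libraries in 3 and lower in 12 (60.0%) of 20, with a median log2 fold change of -0.13 and 0 passing the test (limma; 3 at an unadjusted p below 0.05, 0 with edgeR). Fasn, the fatty acid synthase, read 150852 in siNC, 105761 in siSetdb1 1 and 131226 in siSetdb1 2 (limma, adjusted p = 0.940). Glycolysis genes were higher in 2 (8.33%) and lower in 14 (58.3%) of 24, and nuclear genes of oxidative phosphorylation higher in 4 (8.33%) and lower in 24 of 48, with medians of -0.11 and -0.06 and 0 passing the test in each (limma; 2 and 1 at an unadjusted p below 0.05, 0 with edgeR). In the other cell experiment, 47 of the 48 oxidative phosphorylation genes and 19 of the 20 lipogenesis genes were higher in 4-OHT than in ETOH cells, which are 1 library each, beside 8076 of all 15224 genes tested. Whether the lists differ between the experiments was not tested.

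Macrophage markers were low in these cultures and most of those tested lay below siNC. Of 15 tested markers, 4 (26.7%) were higher and 10 (66.7%) lower in both libraries, with a median log2 fold change of -0.68 and 0 passing the test (limma; 3 at an unadjusted p below 0.05, 1 with edgeR). Lyz2, lysozyme, read 527 in siNC, 244 in siSetdb1 1 and 166 in siSetdb1 2 (log2 fold change -1.38, SE 0.23; limma, adjusted p = 0.0927), and a relative shares 32.8% of its words. Lyz2 was called by edgeR (adjusted p = 3.95e-05) and DESeq2 (0.030). C1qa, a complement subunit, read 59.2, then 26.3 and 32.6. The summed level of the 19 markers was 3755 normalised counts in siNC, 3485 in siSetdb1 1 and 3895 in siSetdb1 2, much of it Lgals3, which adipocytes and fibroblasts also express (2670.3, then 2902 and 3326). Cd163 had 0 reads. In bulk libraries, fewer cells of a type and less RNA per cell cannot be told apart. Acp5 and Spp1, which macrophages and osteoclasts also express, went the other way: Spp1, the matrix protein osteopontin, read 829.9 in siNC, 1456 in siSetdb1 1 and 1462 in siSetdb1 2 and was called by edgeR and DESeq2, not by limma (adjusted p = 0.0537). Mpeg1, a pore-forming protein of macrophages that is outside the marker list and was picked with its values known, also lay higher, with 319 in siNC, 596 in siSetdb1 1 and 490 in siSetdb1 2 (adjusted p = 0.397 with limma and 0.0353 with edgeR). The part of macrophages in these values was not tested.

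The genes that passed the test were then read in the other Setdb1 experiments. Atf7ip read 1534 normalised counts in ETOH and 4332 in 4-OHT cells, and 202 and 228 in control BAT against 405 and 539.6 in Setdb1 AKO BAT. H2-Q10 read 219 in ETOH and 1553 in 4-OHT cells, and 3782 and 3281 in control against 6541 and 8349.7 in Setdb1 AKO BAT. For both genes the order of the groups was the same in the 3 experiments. Acp5 read 203 in ETOH and 429 in 4-OHT cells, and 1276 and 1141 in control against 2548 and 1969 in Setdb1 AKO BAT. Rdh12 was nearly absent from both other experiments, with 19.6 in ETOH and 8.15 in 4-OHT cells and at most 42.6 in any BAT library, so its lower level there rests on few reads.

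Resf1 changed more in tissue. It read 4839 in ETOH and 21625 in 4-OHT cells, and 999.8 and 1469 in control BAT against 12727 and 12933 in Setdb1 AKO BAT. The siSetdb1 change was smaller than the Setdb1 AKO change in BAT (difference of the log2 changes -2.19, SE 0.28; limma over 9 libraries, adjusted p = 0.0489). The same test gave 0.06 for Atf7ip (adjusted p = 0.974), 0.68 for H2-Q10 (0.449) and -0.04 for Acp5 (0.980). For Setdb1 itself the difference was 0.40 (SE 0.25; limma, adjusted p = 0.679), with log2 changes of -1.02 after siSetdb1, -0.73 after 4-OHT and -1.42 in Setdb1 AKO BAT.

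**Figure D5:**
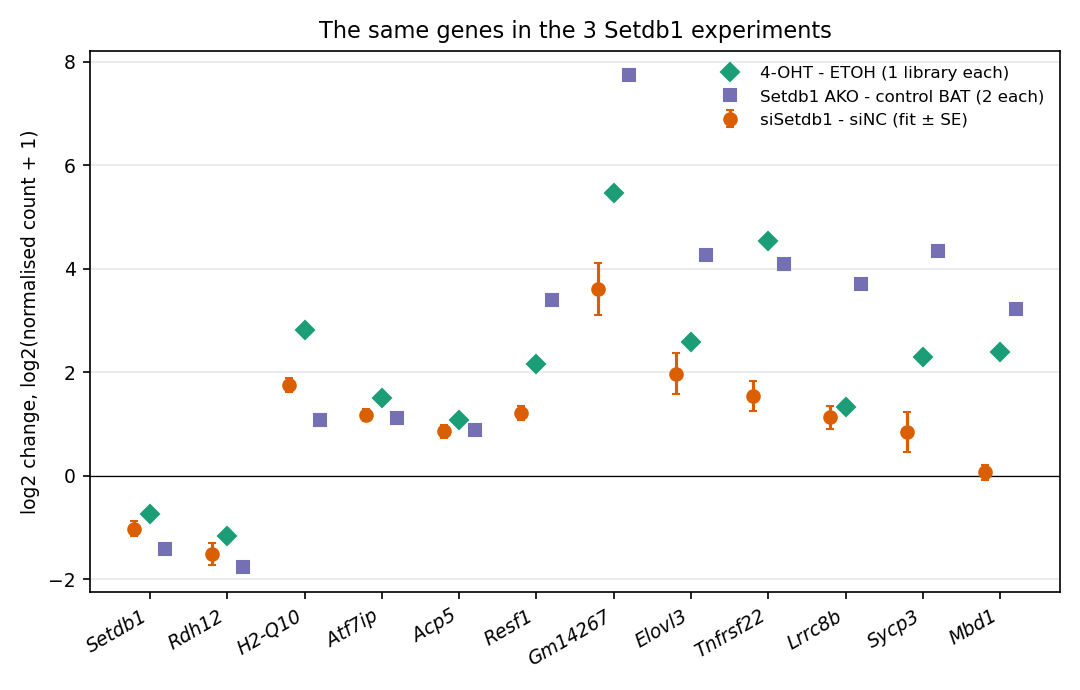
Log2 change of 12 genes after siSetdb1 (orange circles, fit ± SE), after 4-OHT (green diamonds, 1 library each) and in Setdb1 AKO BAT (purple squares, 2 libraries each), on the log2(normalised count + 1) scale. Setdb1 and the 6 genes that passed the test lie on the same side of 0 in the 3 experiments. The siSetdb1 points of Resf1, Gm14267, Elovl3, Tnfrsf22, Lrrc8b, Sycp3, Mbd1 and, narrowly, Acp5 lie below the others. Resf1, Elovl3, Tnfrsf22, Lrrc8b, Sycp3 and Mbd1 were in a set or lists chosen with earlier results of these data known. Their order is a description.

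Over all genes, 18 (0.118%) had a siSetdb1 change that differed from the Setdb1 AKO change in BAT, 7 with a higher and 11 with a lower siSetdb1 change (limma over 9 libraries, false discovery rate below 0.05; edgeR called 12 and 25). Both counts were 0 when either siSetdb1 library was left out. Without control BAT replicate 1 or 2 they were 0 higher and 6 or 8 lower, and without Setdb1 AKO BAT replicate 1 they were 11 and 21. Mbd1 had the smallest adjusted p among the genes named by rule: its siRNA values given above stood beside 1702 in ETOH and 8909 in 4-OHT cells, and 1831 and 1629 in control against 15729 and 16285 in Setdb1 AKO BAT. Its difference was -3.15 (SE 0.18; limma, adjusted p = 0.0011). No gene (0%) had a siSetdb1 change that differed from the 4-OHT change by limma, and 0 did by edgeR, while 356 had an unadjusted p below 0.05. With 1 library in each 4-OHT group, that test has little to rest on: Mbd1 had a difference of -2.32 (SE 0.22; adjusted p = 0.085) there.

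Other genes with high levels in the Setdb1 AKO libraries were read the same way. Tnfrsf22, a decoy receptor of the TNF family, read 69.1 in siNC, 161 in siSetdb1 1 and 254 in siSetdb1 2, beside 88.4 in ETOH and 2067 in 4-OHT cells, and 34.9 and 36.5 in control against 449.7 and 854 in Setdb1 AKO BAT. Lrrc8b, a subunit of volume-regulated anion channels, read 202, 361 and 544 in the siRNA libraries, 632 in ETOH and 1596 in 4-OHT cells, and 171 and 240.5 in control against 2888 and 2442 in Setdb1 AKO BAT. Both were higher in each siSetdb1 library without passing the test (limma, adjusted p = 0.177 for Tnfrsf22 and 0.237 for Lrrc8b), while edgeR called both (adjusted p = 0.0026 and 0.0021). Of the 8 decoy receptor and LRRC8 genes tested, 6 were higher and 1 lower in both libraries, with a median log2 fold change of 0.42, 3 at an unadjusted p below 0.05, 0 called by limma and 2 by edgeR. Among germ line genes, 7 of 34 were abundant enough to test and 0 passed (limma; 0 at an unadjusted p below 0.05, 0 with edgeR). Sycp3, of the synaptonemal complex, read 46.4 in siNC, 60.8 in siSetdb1 1 and 116 in siSetdb1 2, and Sycp2, its partner, 35.5, then 52.7 and 72.3. Tex19.1, a germ line gene, had 2, 4 and 1 reads in siNC, siSetdb1 1 and siSetdb1 2, too few to compare.

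The remaining lists held no gene called by limma or edgeR, and some had an uneven share of higher and lower genes. For p53 targets 13 of 22 (59.1%) were higher and 6 (27.3%) lower in both libraries, for inflammatory and NF-kB genes 10 of 21 and 5, and for extracellular matrix 13 of 35 and 10. Circadian clock genes were higher in 10 and lower in 7 of 19, imprinted genes in 9 and 6 of 27, and clustered protocadherins in 8 (22.2%) and 16 (44.4%) of 36. The RNA interference machinery, through which an siRNA acts, was higher in 4 and lower in 5 of 13. Unadjusted p-values were below 0.05 in 2, 3, 9, 1, 4, 1 and 0 genes in that order, the 9 being of 35 extracellular matrix genes, whose median log2 ratio was -0.07 in siSetdb1 1 and 0.11 in siSetdb1 2. Cholesterol synthesis genes were higher in 4 (17.4%) and lower in 11 (47.8%) of 23, and fatty acid oxidation genes in 4 (17.4%) and 12 (52.2%) of 23, with 1 and 2 at an unadjusted p below 0.05. Nucleic acid sensors (5 higher, 5 lower of 16), immediate early genes (7 and 4 of 18) and serine synthesis with the integrated stress response (8 and 11 of 30) had 0, 1 and 3 at an unadjusted p below 0.05.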

How the data were processed

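RNA was sequenced from 3 siRNA libraries, with 6 other libraries of the series used beside them. Per the submitters' processing notes, DESeq2 1.36.0, featureCounts 2.0.3, STAR 2.7.10a, Trimmomatic 0.39 and the build GRCm38 were used, in roles not named. The annotation release and strand setting are not given in the sources used here. The deposited siRNA tables hold a signal per gene and library, scaled by the authors, and it is a read count times 1 factor: dividing by that factor gave whole reads within 0.2 reads for 100% of values. The deposited 4-OHT table holds raw counts too, and 26645 of 26645 recovered genes equal them. A p-value with its adjusted form was deposited for each table by the authors and serves only for counts named as theirs. Other deposited columns of gene symbols, gene length and biotype, per the file headers, annotate the genes.

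The siNC library has equal reads in the 19381 genes of both siRNA tables, so the tables were linked by it, scaling siSetdb1 2 by 1.0024. Genes in 1 table only had at most 1 siNC read and were set to 0 in the other. Genes with at least 10 normalised counts in 1 library were tested with limma 3.58.1 (lmFit, eBayes with a trend) on log2(normalised count + 1) in R 4.3.3, two-sided, calling genes at an FDR (Benjamini-Hochberg) under 0.05. This scale understates changes of genes with few reads. The fit has 1 residual degree of freedom and 10.2 prior ones borrowed across genes, with siNC, a lone library, taken to scatter as siSetdb1 does. Differences between experiments were contrasts of 1 limma fit over 9 libraries (3 residual degrees of freedom). Alternatives were edgeR 4.0.16 and DESeq2 1.42.0 on recovered reads, TMM scaling, pseudocounts of 0.5 and 10, a filter of 50 or none, no variance trend, the fit over 9 libraries and leaving out each library within it. The test was checked on simulated data.

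Named genes are the protein-coding genes with both siSetdb1 libraries on 1 side of siNC, 12 per direction by the smaller absolute log2 ratio among genes with at least 100 normalised counts in siNC (lower) or both siSetdb1 libraries (higher), plus those called, Setdb1, a fixed set (Ucp1, Ppargc1a, Prdm16, Cidea, Dio2, Elovl3, Adipoq, Pparg, Fabp4, Fasn, Resf1, Tex19.1, Sycp3, Mbd1) and the 4 members of each list with the smallest p. Genes named beyond these were picked with their values known. The members and the 25 gene lists and 10 marker lists were chosen with earlier results of these data known.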

Additional observations from a re-analysis of the deposited data

Results flagged for a closer look

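Of the 18 genes whose change after siSetdb1 differed from the change in Setdb1 AKO BAT, 5 were among the genes named by rule. Only these are given here, and the test was of the difference itself (limma over 9 libraries, false discovery rate below 0.05). The difference, siSetdb1 change minus Setdb1 AKO change on the log2 scale, was -2.19 for Resf1 (SE 0.28; limma, adjusted p = 0.0489), the retroelement silencing factor, which rose in the siRNA cells too. For Mbd1, the methyl-CpG reader, it was -3.15 (SE 0.18; limma, adjusted p = 0.0011). Mlf1, a gene known from myeloid leukaemia, read 80.9 in siNC, 82.1 in siSetdb1 1 and 61.1 in siSetdb1 2, beside 11.9 and 12.2 in control and 468 and 408 in Setdb1 AKO BAT, a difference of -5.26 (SE 0.44; limma, adjusted p = 0.00651). Fabp5, a fatty acid binding protein, read 14196 in siNC, 12000.5 and 12037 in the siSetdb1 libraries, beside 1071 and 818 in control and 3065 and 3657 in Setdb1 AKO BAT, a difference of -2.08 (SE 0.25; limma, adjusted p = 0.0402). Nnat, an imprinted gene, read 1015 in siNC, 1920.4 in siSetdb1 1 and 1186 in siSetdb1 2, beside 262 and 330 in control and 45.3 and 51.6 in Setdb1 AKO BAT, a difference of 3.15 (SE 0.39; limma, adjusted p = 0.0417). Cultured adipocytes and whole tissue, and knockdown and deletion, differ together between these experiments and cannot be told apart.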

How the results depend on the processing

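The counts of called genes depended on the setting, and the cause was not tested. Against 5 higher and 1 lower, edgeR called 29 and 8, DESeq2 8 and 3, TMM scaling 53 and 12, a filter of at least 50 gave 22 and 7, pseudocounts of 0.5 and 10 gave 3 and 0 each, and no filter, no variance trend and the fit over all 9 libraries gave 0 and 0. Leaving out siSetdb1 replicate 1 or 2 was run within that fit over 9 libraries and gave 0 to 0 in each direction, as it did with both kept, so these counts say nothing of either library. Genes past 1.5-fold in both libraries (466 higher, 419 lower) numbered 207 and 166 with a pseudocount of 10, 104 and 81 with a filter of at least 50, 1083 and 1480 with no filter, and 968 to 1018 and 1029 to 1048 where 1 siSetdb1 library was judged alone. Genes whose siSetdb1 change differed from BAT (7 higher, 11 lower) numbered 12 and 21 with a pseudocount of 10, 12 and 25 with edgeR, and 0 to 11 and 0 to 21 with 1 library left out, the highest without Setdb1 AKO replicate 1. Those that differed from 4-OHT (0 and 0) numbered 0 and 1 with a pseudocount of 10 and 0 and 0 to 3 with 1 library left out. The log2 fold changes of 3 genes changed sign as 1 siSetdb1 library was left out: Ppargc1a ranged from -0.14 to 0.038, Mlf1 from -0.40 to 0.020 and Cidea from -0.25 to 0.11. Of the values of named genes under alternatives, 1300 kept their direction and side of the threshold, 53 newly passed and 36 no longer passed it. Of the list medians, 331 stayed within the spread between the siSetdb1 libraries and 32 did not. The single siNC library and the 17593799 to 18468152 reads per library limit the design: any deviation of siNC enters each ratio. No paired analysis was possible because siNC has 1 library, so the groups share fewer than 2 replicate numbers.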
